A study of Bos taurus with 40 samples.

Results

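Cumulus cells are the layers of somatic cells that enclose the oocyte in the follicle. Here their RNA was compared between oocytes that later reached the blastocyst stage and oocytes that stopped at cleavage. The comparison takes the 8 cumulus libraries of the 40 bovine (Bos taurus) samples in the series. Of these, 4 belong to the blastocyst group (libraries 9, 10, 11 and 12) and 4 to the cleavage group (libraries 5, 6, 7 and 8). All were chosen by their column labels and compared without pairing. Both groups carry the same remaining sample labels, namely cumulus cell as tissue and cell type and diploid as genotype. The library numbers run from 5 to 8 in the cleavage group and from 9 to 12 in the blastocyst group. Anything that follows these numbers cannot be told apart from the fate of the oocyte. The cumulus cells came from complexes matured in vitro, in a study that also sampled granulosa cells, ooplasm biopsies, whole oocytes and polar bodies. The number of oocytes or animals behind each library is not given in the sources used here, so every p-value measures the spread between these samples, which may be technical.

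Cumulus cells are granulosa-derived cells that stay in contact with the oocyte through fine projections and gap junctions. They pass nutrients, nucleotides and signals that hold or release meiotic arrest, and they answer growth factors that the oocyte secretes. After the ovulatory signal they build a hyaluronan-rich matrix and the complex expands. For these reasons cumulus RNA is often read as a non-invasive sign of the quality of the oocyte inside.

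Levels below are in CPM, a row's counts scaled to a library total of 1000000. A row is one gene model of the authors' count table, and the table has 59051. Of them 26278 had at least 1 count in a cumulus library and 15410 had enough counts to be tested. Most tested rows (13394) carry only an Ensembl identifier without a name, and 670 carry a gene symbol. Libraries held between 7.96 and 9.59 counts in units of 1000000. Pairs of libraries correlated at 0.987 to 0.990 within the blastocyst group, 0.983 to 0.989 within the cleavage group and 0.980 to 0.989 across groups (Pearson r of log2 CPM across rows, which are not independent replicates). No row under its symbol was found for any of 83 marker symbols of cumulus, granulosa, oocyte, theca, endothelial, blood or embryonic cells, except for the oocyte linker histone H1FOO. That gene had 1 count in blastocyst library 9 and 0 in the other 7. The labelled cell type therefore could not be checked against its defining markers under their symbols, and a share of other cells was not tested. In bulk samples, fewer cells of a type and less RNA per cell cannot be told apart.

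Some genes occupy more than 1 row. Among 10065 tested rows with a mean of 100 counts or more, 50 pairs held identical counts in all 8 libraries, and 140 pairs held counts within 2% of each other in all 8. In 108 of the 140 pairs a symbol row matched an Ensembl row. KIAA1551, FAM208A, IARS, SEPT7, H2AFZ, EPRS, TARS, MARCH7 and CTGF each have such a second row, so a count of rows counts some genes more than once. Whether the same reads were counted in both rows was not tested.

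The fate difference in cumulus RNA was small in size. No row of 15410 (0%) passed an adjusted p of 0.05 with edgeR's quasi-likelihood test, while 2249 (14.6%) had an unadjusted p under 0.05. The smallest adjusted p was 0.0751, shared by 8 rows, and 10 rows (0.0649%) lay under 0.10, of which 1, the linker histone H1FX, was higher in the blastocyst group. The DESeq2 Wald test, run on all 26278 rows with a count, called 159 (0.605%) at an adjusted p under 0.05. Of these, 27 (0.103%) were higher and 132 (0.502%) lower in the blastocyst group, and all 159 were among the rows edgeR tested. DESeq2 gave no adjusted p to rows of low count, such as CYR61 at a mean of 22.4 CPM. These shares therefore include rows it could not call, and that cut also kept low-count rows out of the 159. Over all tested rows the median size of the log2 fold change was 0.13, close to the median standard error of 0.12. At an unadjusted p under 0.05, the 955 rows that were higher (6.2%) had a median log2 fold change of 0.23, a 1.17-fold difference. The 1294 lower rows (8.4%) had a median of -0.30, a 1.24-fold difference, and 94 of them exceeded 1.5-fold against 66 of the higher ones. At this p the excess of lower rows depended on the scaling. DESeq2 size factors gave 929 higher and 1315 lower, while library totals alone gave 1164 higher and 1152 lower. With the main scaling, 194 rows were higher and 485 lower at an unadjusted edgeR p under 0.01. Under 0.001 there were 13 higher and 97 lower. The split at these smaller p was not tested with library totals.

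The libraries themselves show how consistent these small differences were. In 1375 rows (8.92%) the 4 libraries of one group all lay on the same side of the 4 of the other, with 652 rows higher (4.23%) and 723 lower (4.69%) in the blastocyst group. DESeq2 size factors gave 643 higher and 731 lower. With library totals as the only scaling the balance turned, to 735 higher and 672 lower. A median row at 10 CPM or more varied by 8.26% between blastocyst libraries and by 8.81% between cleavage libraries (coefficient of variation over 10504 rows). Among 1921 rows at 100 CPM or more, 9.01% were separated with the blastocyst group higher and 4.997% with it lower, although by unadjusted p under 0.05 the shares were close, at 10.8% and 10.05%. Among 8583 rows from 10 to 100 CPM, 4.66% and 5.87% were separated, and 7.15% and 10.5% had such a p. Among rows at 1 to 10 CPM, 1.61% and 2.51% were separated, 2.74% and 4.15% had such a p, and the median standard error was 0.24, as large as the median difference of the higher rows, so differences of that size were not detectable there. The first principal component held 23.97% of the variance and placed blastocyst libraries 9 and 11 (18.6 and 15.7) opposite cleavage library 7 (-26.1). Blastocyst library 12 (-3.999) lay below cleavage libraries 5 (0.09) and 6 (-1.63), so this axis did not split the fates. The second component held 18.89% of the variance. It placed cleavage libraries 5, 6 and 8 (-10.6, -17.0 and -10.6) below the blastocyst libraries (-4.06 to 16.7), but cleavage library 7 (13.2) among them. A split along both axes together was not tested.

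**Figure D1:**
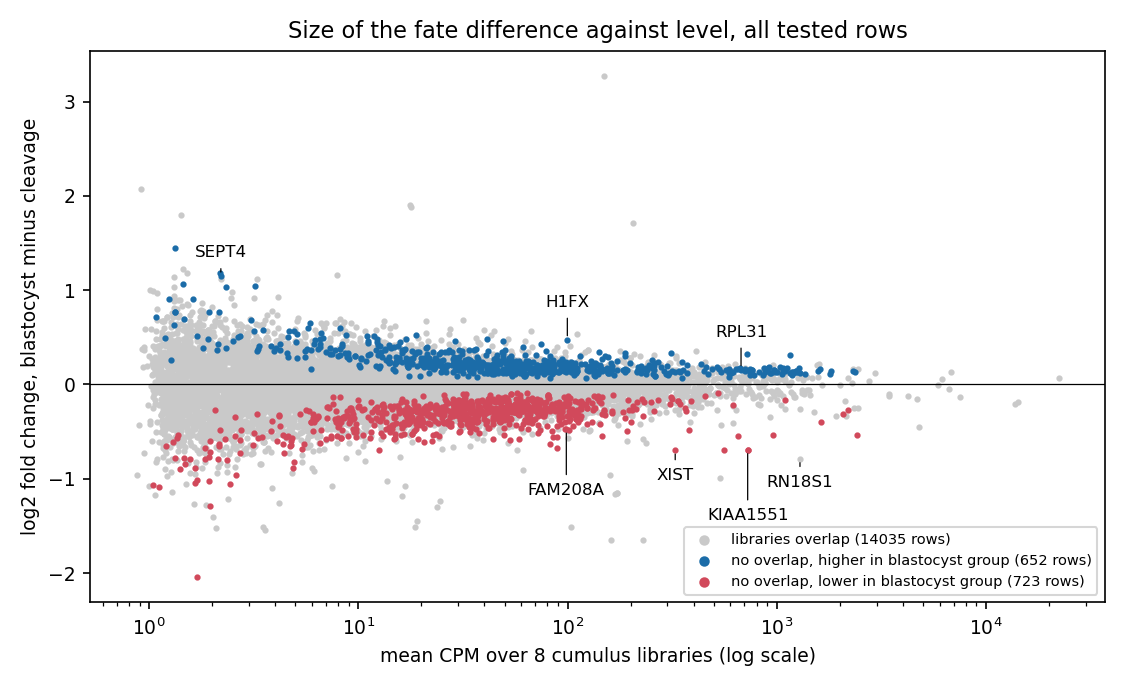
Log2 fold change of each of 15410 tested rows (blastocyst minus cleavage, vertical axis) against its mean CPM over 8 cumulus libraries (horizontal log axis). Blue and red points are the 652 higher and 723 lower rows whose libraries do not overlap between groups, and most of them lie within a narrow band around 0.

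H1FX had the smallest p of any symbol row that was higher in the blastocyst group. It encodes a linker histone, the class that binds DNA between nucleosomes, and it is made outside DNA replication. Its level was 119.7, 117, 119.6 and 107 CPM in blastocyst libraries 9 to 12 and 93.2, 87.2, 77.7 and 76.1 CPM in cleavage libraries 5 to 8. Every blastocyst library lay above every cleavage library, with a gap from 93.2 to 107 CPM. The mean was 38.7% higher (log2 fold change 0.47, SE 0.08, n = 4 per group; edgeR adjusted p = 0.0751, DESeq2 adjusted p = 0.000109). The difference held at 0.43 to 0.53 when any 1 library was left out. The other abundant linker histone, H1F0, stood at 93.3 ± 3.45 CPM against 99.97 ± 9.34 (SD, n = 4), with overlapping groups and a log2 fold change of -0.10. Over 5 linker histone rows with enough counts the median was -0.01, or 0.01 with library totals as the only scaling. H1FX was the single member with an unadjusted p under 0.05.

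The next higher symbol rows also differed little between groups and varied little within them. SNRNP70, the protein that marks the U1 particle at the start of splicing, stood at 147, 143, 152 and 141 CPM in the blastocyst libraries and 123, 118, 131 and 125 CPM in the cleavage libraries. All blastocyst libraries were above all cleavage ones (log2 fold change 0.23, SE 0.06; edgeR adjusted p = 0.165). ASNA1, the ATPase that delivers tail-anchored proteins to the endoplasmic reticulum, stood at 98.5 ± 5.81 against 83.4 ± 2.43 CPM (log2 0.24). WRB, the receptor for that delivery and the only other member of the list with a row, had a log2 fold change of -0.02. TMEM8A, an enzyme that releases some lipid-anchored proteins, stood at 64.0 ± 3.05 against 53.7 ± 1.53 CPM (log2 0.25, edgeR adjusted p = 0.153), and its groups did not overlap. FAM227B stood at 57.7 ± 2.32 against 47.4 ± 4.05 CPM (log2 0.28). CD3EAP, a subunit of RNA polymerase I, stood at 26.96 ± 1.59 against 21.6 ± 2.02 CPM (log2 0.32). NBL1, a secreted antagonist of bone morphogenetic proteins, stood at 30.1 ± 3.40 against 23.7 ± 1.48 CPM (log2 0.34, SE 0.10), again without overlap. None of these passed the edgeR test.

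Lower-level rows gave larger folds with wider spread. SEPT4, a septin with a known role in cell death, was at 4.85, 2.65, 2.09 and 2.55 CPM in the blastocyst libraries and 1.57, 1.85, 1.47 and 0.583 CPM in the cleavage libraries. Blastocyst library 9 was the highest by a wide margin and cleavage library 8 the lowest, and the groups did not overlap. The log2 fold change of 1.15 had an SE of 0.36 (edgeR adjusted p = 0.200) and ranged from 0.82 to 1.32 with 1 library left out. ZNF580, a zinc finger protein, stood at 12.9 ± 2.60 against 9.01 ± 0.981 CPM (log2 0.51, no overlap). APOBEC3Z2, a cytidine deaminase that restricts retroelements, stood at 7.40 ± 1.23 against 4.94 ± 0.671 CPM (log2 0.58), and its groups overlapped.

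Among abundant symbol rows, those whose blastocyst libraries all lay higher included RPL31, a protein of the large ribosomal subunit. It measured 705, 700.1, 755 and 684 CPM in the blastocyst libraries against 618, 624, 659 and 653 CPM in the cleavage libraries. The gap between groups, from 659 to 684 CPM, was narrower than the spread within either group (log2 fold change 0.16, SE 0.05; edgeR adjusted p = 0.246). HMGN2, a protein that opens chromatin by binding nucleosomes, had 277, 274, 279.5 and 283 CPM against 262, 252, 223 and 215 CPM. Its blastocyst libraries were almost level while cleavage libraries 7 and 8 were low (log2 0.23, SE 0.07; edgeR adjusted p = 0.200). SELENOH, a nuclear selenoprotein, was also level among blastocyst libraries and wider among cleavage ones, at 62.5 ± 0.977 against 53.2 ± 5.70 CPM, and there cleavage libraries 5 and 7 were the low ones.

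**Figure D2:**
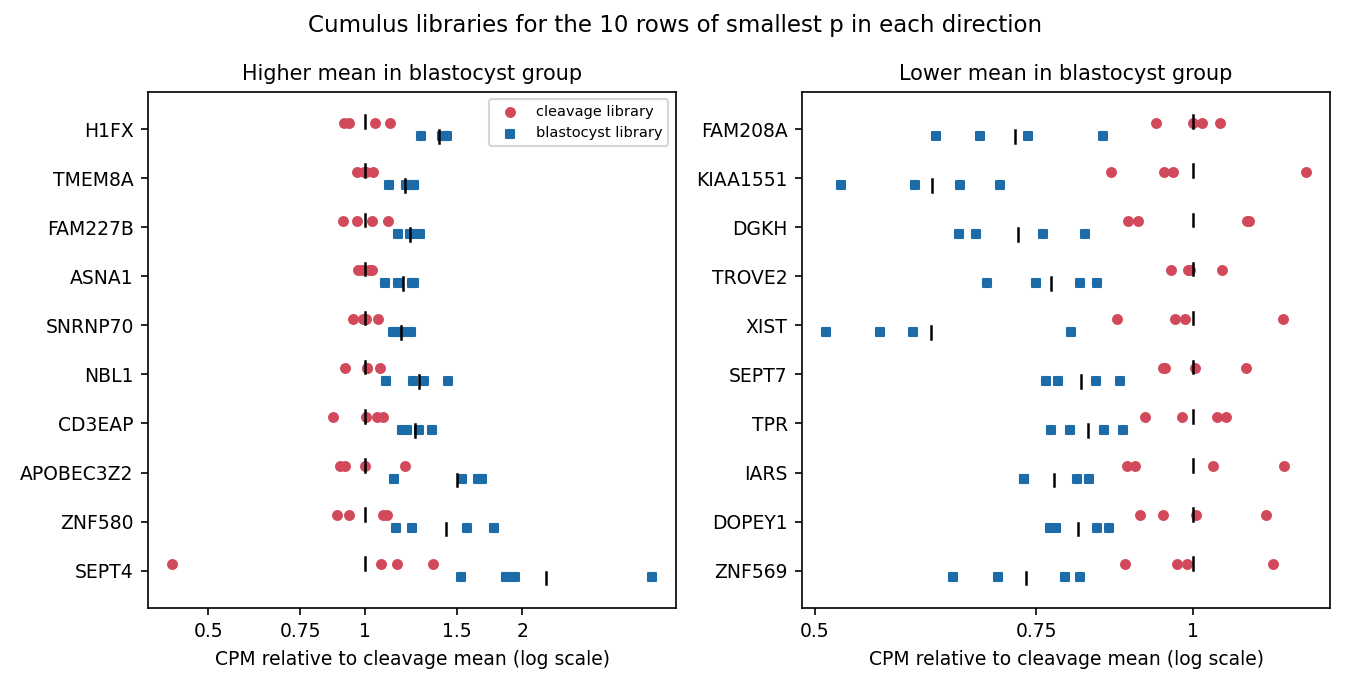
Each point is 1 cumulus library, drawn as its CPM divided by the mean of the cleavage group (log axis), for 10 named rows per direction, taken by p; squares are blastocyst libraries, circles cleavage libraries and black ticks group means. In every row but APOBEC3Z2 the squares and circles do not overlap, and most rows differ by less than 1.5-fold.

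Among the lower symbol rows of smallest p were genes of retroelement silencing. KIAA1551, also called RESF1, is a partner of the histone methyltransferase SETDB1 in silencing endogenous retroviruses. It stood at 470.2, 539, 629 and 584 CPM in blastocyst libraries 9 to 12 and at 770.2, 849.9, 864 and 1101 CPM in cleavage libraries 5 to 8. All blastocyst libraries were lower, and the highest of them (629) lay under the lowest cleavage library (770.2). The cleavage mean was 1.61-fold the blastocyst mean (log2 fold change -0.69, SE 0.12; edgeR adjusted p = 0.103, DESeq2 adjusted p = 3.68e-05).

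FAM208A, also called TASOR, is the scaffold of the HUSH complex, which places silencing marks on integrated retroelements. Its level was 71.5, 84.5, 77.5 and 97.1 CPM in the blastocyst libraries and 115, 116, 120.3 and 107 CPM in the cleavage libraries. Blastocyst library 12 came closest to the cleavage range, and the groups did not overlap (log2 fold change -0.47, SE 0.09; edgeR adjusted p = 0.103, DESeq2 adjusted p = 0.00188). Without library 12, FAM208A had a log2 fold change of -0.56 and an edgeR adjusted p of 0.0440. Over all fits with 1 library left out, its log2 fold change ran from -0.56 to -0.40. The edgeR adjusted p in those fits ran from 0.0440 to 0.333. FAM208B, its paralogue, stood at 81.8 ± 5.64 against 91.1 ± 3.27 CPM (log2 -0.15, edgeR unadjusted p = 0.0389) and its groups overlapped. These are the only 3 of 18 symbols on the silencing list that have a row under their symbol. All 3 were lower at an unadjusted p under 0.05, against 8.4% of all tested rows, and none passed after adjustment. The members were chosen with earlier results of these data known, so the count is a description.

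XIST, the long noncoding RNA that coats and silences an X chromosome in female cells, was lower in the blastocyst group at a log2 fold change close to that of KIAA1551. Its level was 242, 323, 228 and 206 CPM in the blastocyst libraries and 391, 476, 398 and 351 CPM in the cleavage libraries. Blastocyst library 10 was nearest to the cleavage group and stayed under its lowest library (log2 fold change -0.69, SE 0.14; edgeR adjusted p = 0.134, DESeq2 adjusted p = 0.000246). With 1 library left out the log2 fold change lay between -0.84 and -0.61. Of 7 other long noncoding RNAs with enough counts, ADNCR (26.3 ± 4.47 against 35.3 ± 4.19 CPM, log2 -0.43) and TUG1 (136 ± 7.38 against 158 ± 13.4 CPM, log2 -0.22) were lower at an unadjusted p under 0.05. With XIST that is 3 of 8 (37.5%), against 8.4% of all tested rows, in a family defined after values were seen. The sign of the family's median turned without blastocyst library 12. H19, an imprinted RNA, went the other way with wide spread, at 136, 104, 148 and 174 CPM against 68.1, 123, 155 and 90.9 CPM. Its groups overlapped and its log2 fold change of 0.36 had an SE of 0.28. MEG3, another imprinted RNA, ranged from 0.764 to 11.4 CPM within the blastocyst group alone.

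Further lower rows covered signalling, RNA surveillance, the cytoskeleton and the nuclear pore. DGKH, a kinase that converts diacylglycerol to phosphatidic acid, stood at 45.1, 56.8, 46.6 and 52.6 CPM in the blastocyst libraries and 76.7, 76.4, 61.5 and 62.7 CPM in the cleavage libraries. The groups did not overlap (log2 fold change -0.46, SE 0.10; edgeR adjusted p = 0.128, DESeq2 adjusted p = 0.0113). TROVE2, the Ro60 protein that binds misfolded small RNAs, stood at 28.7 ± 2.55 against 37.2 ± 1.46 CPM (log2 -0.38, DESeq2 adjusted p = 0.0293). TPR, the filament protein of the nuclear pore basket, stood at 147 ± 8.77 against 178 ± 11.9 CPM (log2 -0.28, DESeq2 adjusted p = 0.0370). SEPT7, the core subunit of septin filaments, stood at 92.4 ± 5.83 against 114 ± 8.22 CPM (log2 -0.30, DESeq2 adjusted p = 0.0360). DOPEY1, a membrane traffic protein, stood at 41.1 ± 2.23 against 50.7 ± 5.23 CPM (log2 -0.30), and the DNA-binding protein ZNF569 at 12.3 ± 1.33 against 16.7 ± 1.93 CPM (log2 -0.44). None of these 6 overlapped between groups and none passed with edgeR, where their adjusted p ran from 0.128 to 0.168. Leaving out 1 library at a time kept each of the 6 lower.

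Of the 9 symbol rows called by the DESeq2 Wald test, H1FX was higher and KIAA1551, XIST, FAM208A, DGKH, TROVE2, SEPT7, TPR and IARS were lower. Only 6 of them were also called by edgeR without its filter on low counts, where KIAA1551, XIST and TPR were not. Across all 670 symbol rows, 33 (4.93%) were higher and 68 (10.1%) lower at an unadjusted p under 0.05, against 6.2% and 8.4% of all tested rows. Rows with a symbol as their own name took 2.71 ± 0.0339% of counts in the blastocyst group and 2.85 ± 0.151% in the cleavage group. This symbol share leaves out LOC rows given a symbol, which are 42 of the 670 tested. Ensembl rows took 94.5 ± 0.0420% and 94.3 ± 0.156%. Both shares separated the groups completely (exact two-sided permutation p = 0.0286 for each, the smallest 70 assignments allow, or 0.114 after Benjamini-Hochberg adjustment over 8 library measures). Cleavage library 8 had the highest symbol share (3.08%). It also held 3597 CPM of 1 symbol row, the ribosomal RNA RN18S1, against 549 to 1323 CPM in the other cleavage libraries. The symbol share without RN18S1 was not tested. The part of these shares in the symbol rows' excess of lower values was not tested either.

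The aminoacyl-tRNA synthetases, which load amino acids onto their tRNAs, had 18 tested rows, and none was higher while 3 (16.7%) were lower at an unadjusted p under 0.05, against 6.2% and 8.4% of all tested rows. IARS, for isoleucine, stood at 99.9, 102, 90.6 and 90.7 CPM in the blastocyst libraries and 109, 128, 111 and 146 CPM in the cleavage libraries. The groups did not overlap, and cleavage library 8 was the highest (log2 fold change -0.37, SE 0.09; edgeR adjusted p = 0.153, DESeq2 adjusted p = 0.0377). TARS, for threonine, stood at 100.02 ± 3.40 against 119 ± 16.7 CPM, and EPRS, for glutamate and proline, at 219 ± 5.17 against 250 ± 22.6 CPM, with overlapping groups in both.

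Cleavage libraries differed widely among themselves in this family. Library 8 held the highest value of all 8 libraries in 10 of 18 synthetases, and cleavage library 7 the lowest in 8 of 18. Over all tested rows those shares were 12.6% and 17.5%. GARS, for glycine, measured 119.8, 116, 129.8 and 101 CPM in the blastocyst libraries and 140.5, 145, 89.3 and 198 CPM in the cleavage libraries, so libraries 7 and 8 of the same fate differed more than the group means. AARS, for alanine, went from 138 CPM in library 7 to 225 CPM in library 8 around a blastocyst mean of 176 ± 17.5 CPM. Without library 7 the family's median log2 fold change moved from -0.11 to -0.23, and 8 members were lower at an unadjusted p under 0.05. Other omissions weakened the lower members. Without library 8, IARS had a log2 fold change of -0.27, against -0.37 with all libraries. Over all fits with a single library left out, TARS ranged from -0.31 to -0.15 and EPRS from -0.24 to -0.15. The edgeR unadjusted p in those fits reached 0.0613 for TARS and 0.0682 for EPRS. The family's median without library 8 is not reported here. VARS, KARS and QARS stood slightly higher in the blastocyst group, with log2 fold changes of 0.10, 0.10 and 0.07.

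For the list of RNA quality control, of 6 tested members, 5 had a lower mean in the blastocyst group and 2, TROVE2 and ZCCHC6, an enzyme that adds uridines to RNA ends, had an unadjusted p under 0.05. Over all tested rows 50.7% had a higher mean in the blastocyst group and 8.4% were lower at such a p. ZCCHC6 stood at 49.6 ± 5.24 against 57.8 ± 3.97 CPM with overlapping groups. Zinc finger genes, most of them DNA-binding repressors, had 60 tested rows, of which 10 (16.7%) were lower and 2 (3.33%) higher at an unadjusted p under 0.05, against 8.4% and 6.2% of all tested rows, with a median log2 fold change of -0.05. ZNF793 (6.45 ± 1.22 against 9.43 ± 0.880 CPM, log2 -0.54) and ZNF484 (25.7 ± 2.78 against 31.8 ± 2.79 CPM, log2 -0.31) were lower without overlap. ZNF260 stood at 10.6, 19.3, 16.5 and 15.9 CPM against 19.4, 20.9, 31.4 and 20.6 CPM, where blastocyst library 9 and cleavage library 7 set most of the difference. ZNF865 (18.1 ± 2.53 against 13.96 ± 0.944 CPM, log2 0.37) was one of the 2 that stood higher, with ZNF580. REST, a repressor of neuronal genes that carries zinc fingers, stood at 74.6 ± 8.15 against 86.1 ± 5.64 CPM (log2 -0.21) with overlap. These families were defined after the row names and values had been seen.

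Core histones, the proteins of the nucleosome itself, had a median near 0. Of 23 tested rows, 14 had a higher mean in the blastocyst group, where 50.7% of all tested rows did, and the median log2 fold change was 0.04. At an unadjusted p under 0.05 none was higher and 2 (8.70%) were lower, against 6.2% and 8.4% of all tested rows. These 2 were H2AFZ and HIST2H2BE. H2AFZ, the variant histone at promoters, was at 332, 309, 283 and 344 CPM in the blastocyst libraries and 350.1, 351, 384 and 352 CPM in the cleavage libraries. Its groups did not overlap, although blastocyst library 12 came within a few CPM of the cleavage range (log2 -0.18, edgeR adjusted p = 0.282). HIST2H2BE stood at 27.6 ± 4.72 against 34.0 ± 2.998 CPM and overlapped. The replacement histone genes H3F3A (330.2 ± 14.02 against 331 ± 10.2 CPM) and H3F3B (402 ± 32.3 against 435 ± 26.2 CPM) had an unadjusted edgeR p of 0.956 and 0.120.

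Septins and MARCH ubiquitin ligases each held members on both sides, to be read against the 14.6% of all tested rows with an unadjusted p under 0.05. Of 11 tested septins, SEPT4 and SEPT5 (32.7 ± 5.001 against 27.1 ± 1.16 CPM, log2 0.27) were higher and SEPT7 was lower at an unadjusted p under 0.05. The abundant septins SEPT2 (199 ± 6.33 against 207 ± 6.71 CPM) and SEPT11 (209 ± 36.4 against 231 ± 40.8 CPM) had log2 fold changes of -0.05 and -0.15 and did not reach that level. The 8 tested MARCH rows encode ubiquitin ligases, most of them membrane-bound enzymes that mark other membrane proteins for breakdown. Of these 8, MARCH6, MARCH7 and MARCH3 were lower and MARCH9 higher at an unadjusted p under 0.05. MARCH6, the ligase of the endoplasmic reticulum, measured 105, 106, 103 and 108 CPM against 131, 111, 125 and 113 CPM. The blastocyst libraries were tightly grouped just under the lowest cleavage library (log2 -0.19, SE 0.07; edgeR adjusted p = 0.255). MARCH9 stood at 28.5 ± 3.25 against 23.98 ± 1.03 CPM with overlap. The related polarity proteins MPP5 (31.7 ± 2.81 against 38.9 ± 3.53 CPM) and MPP6 (41.5 ± 5.64 against 51.5 ± 4.98 CPM) both had lower means, with log2 fold changes of -0.30 and -0.31 and overlapping groups.

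**Figure D3:**
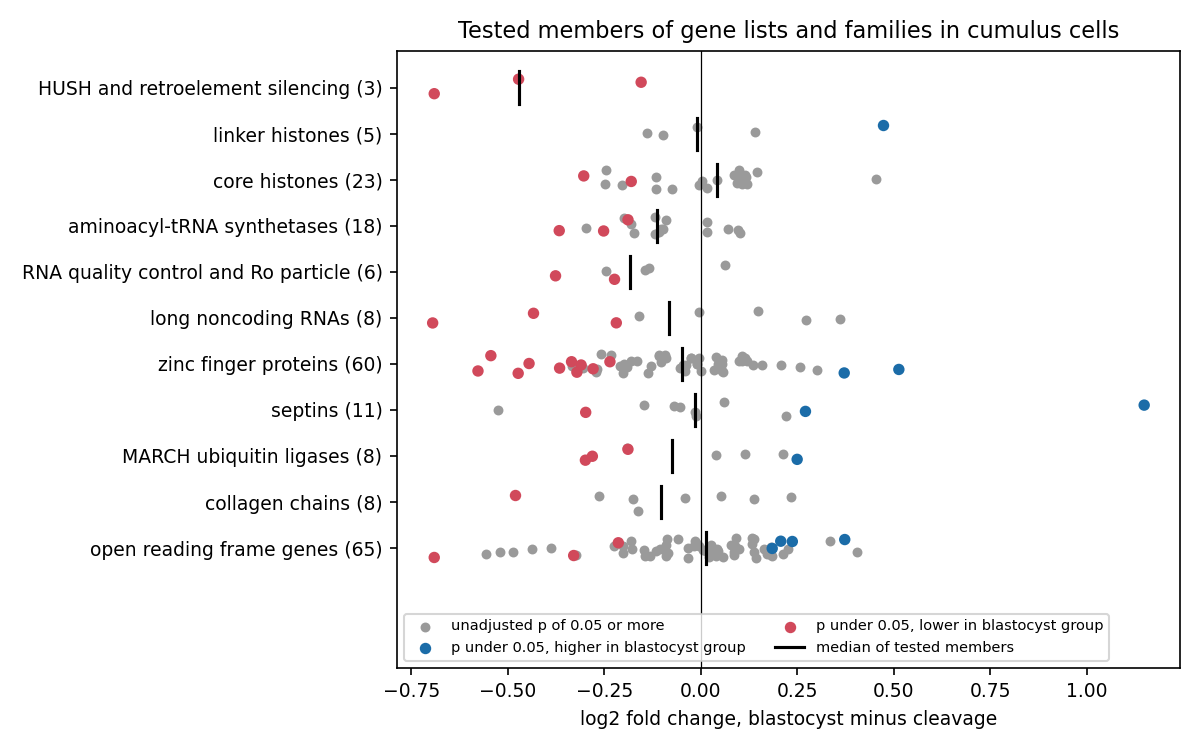
Log2 fold change (blastocyst minus cleavage, horizontal axis) of every tested member of 11 gene lists and families, with the number tested in brackets and the median as a black bar. The 3 silencing genes and most coloured synthetase and zinc finger points lie left of 0, H1FX is the linker histone farthest to the right, and the medians of core histones and open reading frame genes sit at 0.04 and 0.01.

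Among matrix genes and targets of the Hippo pathway with a row, CTGF, CYR61, COL4A4 and TIMP1 differed by less than 1.5 of their standard errors, while COL25A1 and LAMA5 had an unadjusted p under 0.05. CTGF measured 485, 542, 513 and 542 CPM in the blastocyst libraries and 591, 536, 444 and 520.3 CPM in the cleavage libraries. The groups lay on top of each other (log2 fold change -0.01, SE 0.08), and the sign turned to 0.01 with library totals as the only scaling. CYR61 stood at 22.6 ± 1.81 against 22.1 ± 2.36 CPM. The basement membrane chain COL4A4 stood at 194 ± 15.97 against 199 ± 12.9 CPM, and TIMP1, an inhibitor of matrix proteases, at 1151 ± 113 against 1265 ± 210.3 CPM (log2 -0.14, SE 0.12). COL25A1 was the collagen with an unadjusted p under 0.05 among 8 tested, and it was lower (12.5%, against 8.4% of all tested rows). It measured 28.3, 18.5, 18.4 and 17.6 CPM against 24.2, 24.8, 29.1 and 38.0 CPM. Blastocyst library 9 lay inside the cleavage range, and without it the log2 fold change went from -0.48 to -0.67. Over all fits with 1 library left out, COL25A1 ranged from -0.67 to -0.32, with an edgeR unadjusted p of up to 0.0802. LAMA5, a laminin chain, stood at 92.8 ± 6.08 against 106 ± 9.03 CPM (log2 -0.20, edgeR unadjusted p = 0.0229). RHOB, a GTPase of the actin cytoskeleton, stood at 279 ± 43.3 against 234.2 ± 24.7 CPM (log2 0.25), with blastocyst libraries 9 and 10 inside the cleavage range. No row under its symbol was found for the lists of cumulus expansion, steroid synthesis, cholesterol synthesis, glycolysis, gap junctions, oocyte-derived TGF beta signals, apoptosis or respiration, so those pathways were not analysed here by name.

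Unnamed Ensembl rows gave the smallest p-values of all. ENSBTAG00000021020 stood at 60.9, 65.3, 65.5 and 65.2 CPM in the blastocyst libraries and 91.5, 102, 117 and 89.1 CPM in the cleavage libraries. The blastocyst values were nearly constant, and the cleavage group stood 1.55-fold higher (log2 fold change -0.64, SE 0.08; edgeR adjusted p = 0.0751, DESeq2 adjusted p = 4.72e-06). ENSBTAG00000026953 showed the reverse spread, with 40.7, 44.9, 48.3 and 54.5 CPM against 70.7, 70.7, 69.4 and 69.6 CPM (log2 -0.57, SE 0.08; edgeR adjusted p = 0.0751). On the higher side, ENSBTAG00000012632 stood at 91.0 ± 3.13 against 73.6 ± 0.850 CPM (log2 0.31) and ENSBTAG00000040116 at 85.4 ± 4.08 against 63.6 ± 6.92 CPM (log2 0.43), each with an edgeR adjusted p of 0.103. The files do not pair these identifiers with gene names.

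At a mean of 10 CPM or more, large folds came with overlapping groups. There, 17 rows differed by more than 2-fold, 4 higher and 13 lower in the blastocyst group. In none of the 17 were the groups separated, against 8.92% of all tested rows. Their median SE was 0.88 on the log2 scale, against 0.10 for all rows at that level, and the smallest edgeR adjusted p among them was 0.171. In 12 of the 17 leaving out 1 library brought the difference to 2-fold or less. Under 10 CPM, 38 rows exceeded 2-fold and 14 of them (36.8%), SEPT4 included, were separated between groups. Of all rows at 1 to 10 CPM, 1.61% were separated with the blastocyst group higher and 2.51% with it lower. TCTE3, a dynein light chain gene whose counts recur almost unaltered in 2 more of the 17 rows, measured 70.5, 80.3, 43.1 and 232 CPM in the blastocyst libraries and 297, 236, 262 and 151 CPM in the cleavage libraries. Blastocyst library 12 sat among the cleavage libraries, and without it the log2 fold change went from -1.15 to -1.87 (edgeR unadjusted p = 0.000916, against 0.0824 with all 8). Over all fits with 1 library left out, TCTE3 ranged from -1.87 to -0.89. The edgeR unadjusted p reached 0.173 in those fits, and the lowest edgeR adjusted p was 0.108. RN18S1, the 18S ribosomal RNA, measured 1115, 733, 867 and 1076 CPM against 1066, 1323, 549 and 3597 CPM. Cleavage library 8 alone carried that difference, and without it the log2 fold change went from -0.79 to -0.04.

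The same fate contrast was measured in other libraries of the series, and the values stand side by side here. In granulosa cells, which line the follicle wall, edgeR called 4964 of 22934 rows (21.6%), 4884 higher (21.3%) and 80 lower (0.349%) in the blastocyst group, and in ooplasm biopsies 0 of 21174 (0%). Of the 20 symbol rows with the smallest cumulus p, 10 per direction, none passed in either table. The median log2 fold change in granulosa cells was -0.56 over the 14992 rows tested in both tables, so values near it do not set a gene apart. KIAA1551 had a log2 fold change of -0.67 in granulosa cells with an SE of 0.76. FAM208A had -1.24 (SE 0.49, edgeR adjusted p = 0.0940) and XIST -1.40 (SE 0.68, edgeR adjusted p = 0.157) there. H1FX, higher in the cumulus cells of the blastocyst group, had a log2 fold change of -0.53 in granulosa cells (SE 0.70, 6.73 ± 5.28 against 9.73 ± 3.33 CPM). SNRNP70 and ASNA1 had -0.99 (SE 0.53) and -0.89 (SE 0.51) there, and DOPEY1 had 0.62 (SE 0.39). COL25A1 passed in granulosa cells at a log2 fold change of 3.94 (SE 1.09, edgeR adjusted p = 0.0281), where it was higher in the blastocyst group, and stood at -0.48 in cumulus cells. Standard errors in granulosa cells were several times those in cumulus cells, and the difference between the cell types was not tested. Only 31.7% of those 14992 rows had a positive log2 fold change in granulosa cells, and the share was 15.6% among the 937 rows higher in cumulus cells and 24.6% among the 1283 lower ones at an unadjusted p under 0.05.

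**Figure D4:**
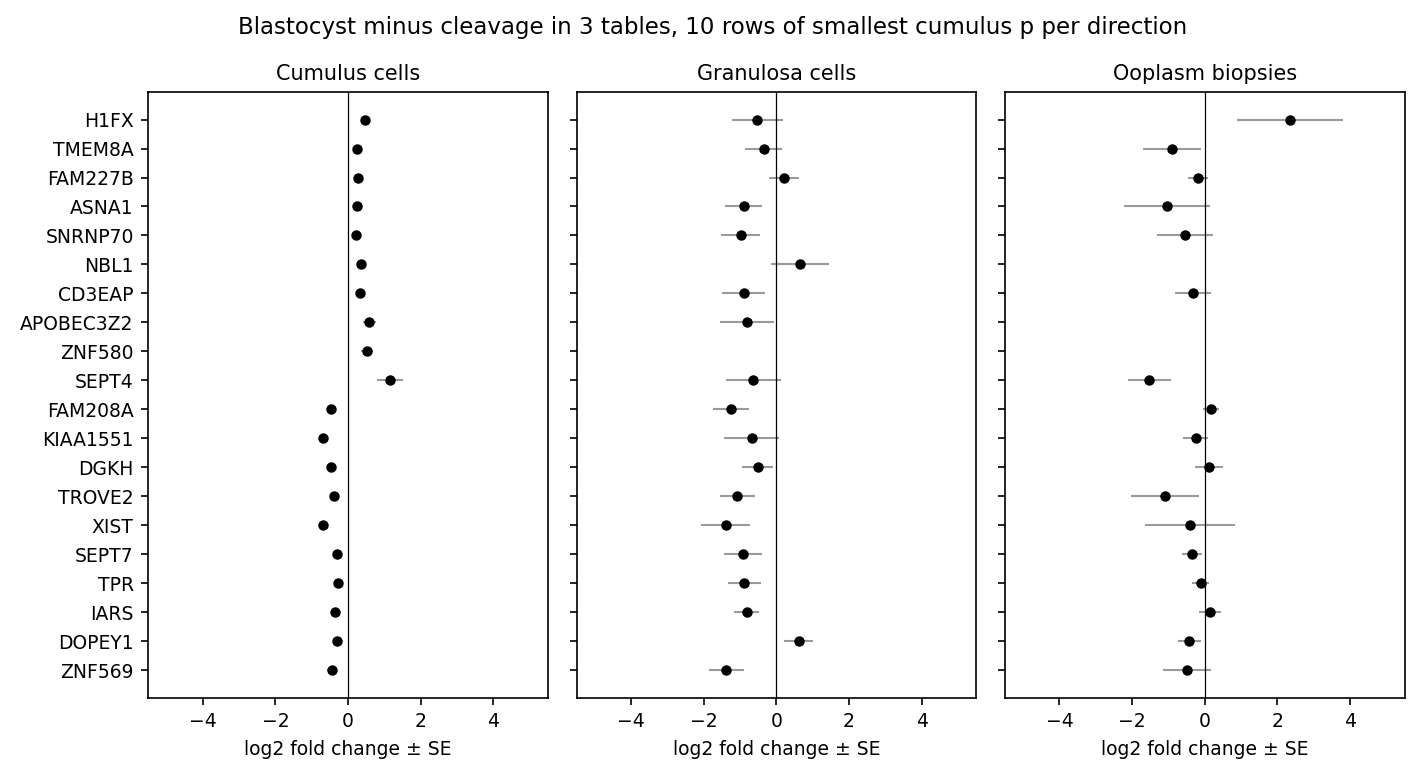
Log2 fold change, blastocyst minus cleavage, with its standard error as a bar, for 20 symbol rows, the 10 per direction with the smallest cumulus p, shown in cumulus cells, granulosa cells and ooplasm biopsies; rows without a point were not tested there. Cumulus values lie close to 0 with short bars, while granulosa and biopsy bars are long and many cross 0.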

How the data were processed

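Counts per row of the cumulus libraries were deposited by the authors as whole numbers and used without change. Per the labels' protocols, the SMART-Seq HT kit and a Nextera XT kit turned polyA RNA into libraries. Trim Galore and cutadapt, then STAR, then featureCounts are named for RNA per the submitters' processing notes. Neither their versions and settings nor strand use nor the genome build is stated in the sources used here. The 8 cumulus libraries were fitted without covariates in edgeR 4.0.16 under R 4.3.3: filterByExpr left 15410 rows, TMM gave the scaling, and the robust quasi-likelihood F test was adjusted by Benjamini-Hochberg over those rows, with 0.05 as threshold. DESeq2 1.42.0 and limma 3.58.1 (voom) were alternatives. Standard errors are the log2 fold change divided by the square root of F, errors after ± are SD over 4 libraries, and CPM are TMM-scaled. Depth was 7.96 to 9.59 counts in units of 1000000, and precision followed level. Library measures were compared by exact permutation over 70 assignments. Symbols came from row names or, for LOC rows, from a RefSeq gene table used for names only, which gave a symbol to 1105 of 7848 LOC rows. Named genes are 10 symbol rows per direction by smallest p, the 5 most abundant per direction without overlap, up to 4 members per list and 2 Ensembl rows per direction. A further 30 genes and 9 symbol families were added after values were seen. The members and lists were chosen with earlier results of these data known. The test was tried on simulated counts. Granulosa and biopsy count tables were each fitted alone in the same way.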

Additional observations from a re-analysis of the deposited data

Results flagged for a closer look

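In groups of 4 libraries, a library is singled out where its gap to the nearest other divided by the group's range exceeds Dixon's critical value, and chance does so in about 1 in 20 groups. Of 146 groups checked, 6 had such a library. H2AFZ stood at 384 CPM in cleavage library 7 against 350.1 to 352 in the other 3, and H3F3B at 475 CPM in the same library against 420.5 to 425. ZNF260 was at 31.4 CPM in cleavage library 7 against 19.4 to 20.9. In blastocyst library 9, ENSBTAG00000021020 was low at 60.9 CPM against 65.2 to 65.5, and COL25A1 was high at 28.3 CPM against 17.6 to 18.5. The share of counts in symbol rows was 3.08% in cleavage library 8 against 2.77% to 2.79%. RN18S1, a symbol row, stood at 3597 CPM in that library against 549 to 1323 CPM in the other cleavage libraries.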

How the results depend on the processing

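The count of rows at an adjusted p under 0.05 was 0 with edgeR and stayed 0 with DESeq2 size factors, library totals, a 1 CPM filter, limma-voom and a fit without robust weights. It was 183 (22 higher, 161 lower) with edgeR on all rows with a count, 159 (27 higher, 132 lower) with the DESeq2 Wald test and 10 at an adjusted p under 0.10. The 183 and the 159 shared 117 rows. Leaving out 1 library gave 0 to 7 rows, with 7 without blastocyst library 12, FAM208A among them, and 3 without cleavage library 7, all Ensembl rows. The 7 also included ENSBTAG00000019748, the second row with nearly the same counts as FAM208A. The count at an unadjusted p under 0.05 stayed within 1.5 times 2249, from 1532 to 2446 with 1 library left out. Its split of 955 higher and 1294 lower became 929 and 1315 with DESeq2 size factors, and 1164 and 1152 with library totals. Rows without overlap numbered 1750 to 2463 with 1 library left out, where 7 libraries separate more easily by construction. Signs turned for the log2 fold change of CTGF (0.00672 with library totals, and -0.0736 to 0.0594 with 1 library left out), COL4A4 (-0.0903 to 7.17e-05), CYR61 (-0.0241 to 0.105) and MEG3 (-0.568 to 0.198). Without blastocyst library 12 the median of the long noncoding RNAs went from -0.08 to 0.08. No paired analysis was possible because the cumulus columns are numbered 5 to 12 while the sample titles are numbered 1 to 4 in each group, so no number pairs a column across fates. Depth limits rows under 10 CPM, where the median standard error was 0.24 against 0.07 at 100 CPM or more.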
